A study of Mus musculus with 6 samples.

Results

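The genes described here are 10 heat shock chaperones of the cytosol and mitochondria, *Hsp90aa1*, *Hsp90ab1*, *Hspa8*, *Hspa1a*, *Hspa1b*, *Hspa9*, *Hspd1*, *Hspe1*, *Hsph1* and *Dnajb1*. They were chosen by name and matched to the mouse symbols of a table of 18324 gene rows, in which all 10 have a row. The cells were B16-F10, an established mouse melanoma line in which single cells differ in how much melanin they hold, grown in DMEM with serum. The labels name no drug or other agent. They were sorted by flow cytometry, on the light that melanin scatters, into high-pigmented (HPC) and low-pigmented cells (LPC), and 3 libraries were made from each. Each HPC library shares a title suffix with 1 LPC library. These are called pairs 1, 2 and 3 below (suffixes 16-9-15, 18-8-14 and 1-9-14), and the labels do not say what the suffix marks or whether the libraries came from separate cultures. The p-values therefore measure the spread between these libraries, which may be technical. The libraries were of the 3′ type, in which a read comes from near the polyadenylated end, so a count does not scale with transcript length. Levels are in CPM, that is, counts divided by the normalised size of their library.

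Heat shock chaperones bind proteins that are unfolded or still being folded and help them reach or keep their shape. In the cytosol, Hsp70 proteins bind short exposed stretches of a client in a cycle driven by ATP, J-domain proteins (Hsp40) load the client, exchange factors release it, and Hsp90 finishes the folding of clients such as kinases and steroid receptors. In the mitochondrial matrix, an Hsp70 draws in imported proteins and the Hsp60 and Hsp10 chaperonin encloses them while they fold. Part of the family is made in all growing cells, and part is switched on by heat shock factors when unfolded protein accumulates. In melanoma cells, Hsp90 clients include kinases of the growth-signalling pathways.

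The libraries of pair 2 stood apart. Gene counts ranged from 3819605 to 7311131 per library, and 14130 to 15002 genes had a count in the libraries of pairs 1 and 3 against 10620 and 12778 in the HPC and LPC libraries of pair 2. A row named RP23-81C12.3 held 53.9% and 27.1% of gene counts in these 2 libraries and 3.54% to 5.03% in the others. Mitochondrial ribosomal RNA held 12.2% and 7.69% in them and 1.51% to 1.99% in the others. Mitochondrial mRNA summed to 97508 CPM in the HPC and 26188 CPM in the LPC library of pair 2, and 20116 to 33483 CPM in the others. All 10 melanocyte lineage markers examined had counts in pairs 1 and 3, with a summed level of 10902 to 21462 CPM against 4590 and 6270 CPM in the HPC and LPC libraries of pair 2, where *Gpr143* had 0 counts. Of 15 markers of leukocytes, endothelium, keratinocytes, fibroblasts and red cells, 6 had a row, and their summed level was 59.4 CPM in the HPC library of pair 2 and 2.94 to 8.79 CPM elsewhere. In the HPC library of pair 2 these markers had 102 counts. Of these, 20 were from the endothelial marker *Pecam1*, which had 0 in the other 5 libraries. *Cdh5*, the other endothelial marker examined, had no row. The leukocyte marker *Cd68*, the only 1 of these markers with enough counts to be tested, had up to 46 counts in a library. Its log2 differences, HPC minus LPC, were 0.51, 6.33 and 1.02 in pairs 1, 2 and 3. Each chaperone and each related gene named below is therefore given with and without pair 2, and tests are unblocked where all libraries are used unless the block is named. The part of this composition in the chaperone levels was not tested.

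The comparison asked whether chaperone transcripts differ between HPC and LPC cells. In all 3 pairs *Hsp90aa1*, *Hsp90ab1*, *Hspa8*, *Hspd1* and *Hspe1* had less transcript in the HPC library, and *Dnajb1* had more. These were 5 and 1 of the 9 chaperones with enough counts to be tested, and over all genes tested 17.2% were lower and 12.9% higher in all 3 pairs. Of those 5, *Hspe1* was lower in pair 2 by only 0.05 on the log2 scale, where the median of all genes was -0.20, so 4 chaperones were below the median of all genes in each pair, against 15.8% of genes. In pairs 1 and 3 alone, 7 of 9 were lower (28.3% of all genes) and 1 was higher (29.6%). The *Hspa1a* row, with 32 counts in all, fell under the minimum for testing and is described by its counts. In bulk RNA, fewer cells with a transcript and less transcript per cell cannot be told apart.

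No difference passed the test with all 6 libraries. In edgeR's quasi-likelihood test, 0 of 11324 genes passed an adjusted p of 0.05, so the share called was 0%, and 38 had an unadjusted p under 0.05 (0.336%), none of them a chaperone described here. Each of the 9 chaperones had an adjusted p of 0.9996. With the pairs as a block, 0 genes passed (0%), 213 had an unadjusted p under 0.05 (1.88%), 2 of them chaperones, and the chaperones' adjusted p was at least 0.927. The biological coefficient of variation, the spread between libraries beyond counting error, was 71.6% without the block, 52.0% with it and 19.5% with the block and without pair 2. That last fit called 155 of 11906 genes (1.3%), 44 of them lower (0.37%) and 111 higher (0.932%) in HPC. Among the 9 chaperones it called 1, *Hspd1*, which was lower. In this fit 7 of the 9 had an unadjusted p under 0.05, as did 1446 of the 11906 genes. The median log2 fold change of the 9 was -0.27 in this fit, and that of all genes was 0.00.

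**Figure D1:**
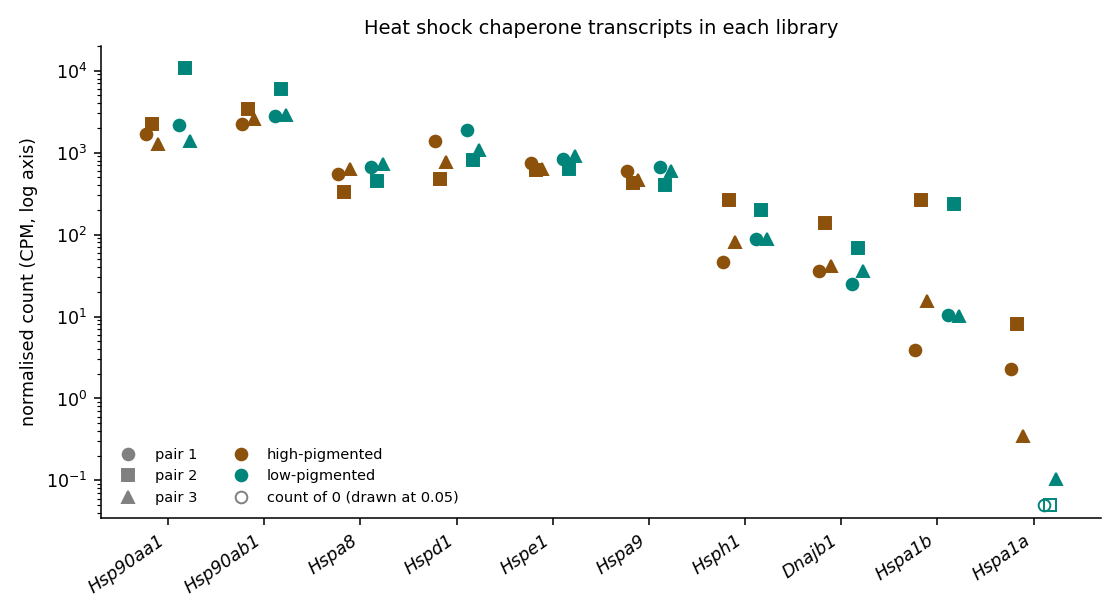
Normalised count (CPM, log axis) of each of the 10 chaperones in the 3 HPC (brown) and 3 LPC (green) libraries, with a marker shape for each pair and counts of 0 drawn open at the foot of the axis. The squares of pair 2 lie apart from the other pairs for *Hspa1b*, where they reach 264 and 238 CPM, and for *Hsp90aa1* in LPC at 10882 CPM.

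The mitochondrial chaperonin was lower in the HPC library of each pair. *Hspd1* encodes Hsp60, whose rings form the folding chamber of the matrix. It had 1393, 472 and 775 CPM in the HPC libraries of pairs 1, 2 and 3 and 1871, 820.2 and 1086 CPM in the LPC ones. In every pair the HPC library was the lower one, although the groups overlap because pair 1 was high and pair 2 low in both. The differences within pairs were -0.42, -0.80 and -0.49 on the log2 scale. Without pair 2 and with the pairs as a block *Hspd1* fell by 27.6%, a log2 fold change of -0.47 ± 0.12 (SE; edgeR's quasi-likelihood test, adjusted p 0.0412, lower in 2 of 2 pairs).

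This call depended on the pair block, the scaling and the libraries used. With so few libraries and a block, edgeR's test takes a gene's spread largely from that of other genes. Without pair 2 and without the block, *Hspd1* was at -0.46 with an adjusted p of 0.99998 in edgeR's test, where 0 genes passed (0%) and 107 had an unadjusted p under 0.05 (0.899%), none of them a chaperone described here. Without pair 2, the blocked fit of limma-voom called it too (adjusted p 0.0013), at 2.97% of all genes called, as did that of DESeq2 (0.0116), at 4.6% of the 2673 genes it gave an adjusted p. With upper-quartile scaling in edgeR, where 1.02% of genes passed, it did not (0.0678). With all 6 libraries it did not pass without the block (-0.52 ± 0.52, adjusted p 0.9996), with it (-0.57 ± 0.15, adjusted p 0.927), or with the block and limma-voom's sample weights (-0.47, adjusted p 0.0568, 0.3% of all genes called). With labels swapped only within the pairs, the exact 2-sided p of *Hspd1* was 0.25, the smallest that 3 pairs can give.

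*Hspe1* encodes Hsp10, the lid of the same chamber. Its libraries had 757, 616 and 636 CPM in HPC and 840.03, 639 and 903 CPM in LPC, so it varied less between pairs than *Hspd1*. Its differences were -0.15, -0.05 and -0.51, and its log2 fold change was -0.25 ± 0.35 (SE) with all libraries and -0.34 ± 0.12 without pair 2 (adjusted p 0.219 in edgeR's test with the block). The HPC and LPC values overlap only through the LPC library of pair 2, which was below the HPC library of pair 1. The count of *Hspd1* divided by that of *Hspe1* was 1.84, 0.766 and 1.22 in the HPC libraries and 2.23, 1.28 and 1.20 in the LPC ones. The ratio thus was lower in HPC in pairs 1 and 2 and nearly equal in pair 3.

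The chaperonin genes lie head to head on chromosome 1, *Hspd1* on the minus strand at chr1:55077835-55088243 and *Hspe1* on the plus strand at chr1:55088132-55091307 (GRCm38, GENCODE vM21), and their annotated ends overlap by 112 bases. The overlap is at their 5′ ends, away from the 3′ ends that these libraries read. At those 3′ ends, the last 500 bases of *Hspd1* match 2 other annotated genes at 95% identity or more, over up to 500 bases. Those of *Hspe1* match 1 other gene over 479 bases. These other genes have no row, so what shared reads did to the counts of *Hspd1* and *Hspe1* could not be checked. The sequence where they meet is shown because it lies before the start of *Hspe1* and, read on the other strand, before the second annotated start of *Hspd1*. Printed are the 250 bases before the *Hspe1* start in RefSeq (GRCm38.p6, chr1:55087898-55088147, plus strand), with matches to the heat shock element in capitals. The element, the DNA motif that heat shock factors bind, was searched as 3 units (GAANNTTCNNGAA or TTCNNGAANNTTC) and as 2 units (GAANNTTC or TTCNNGAA), where N is any base and each pair covers both strands.
Hspe1: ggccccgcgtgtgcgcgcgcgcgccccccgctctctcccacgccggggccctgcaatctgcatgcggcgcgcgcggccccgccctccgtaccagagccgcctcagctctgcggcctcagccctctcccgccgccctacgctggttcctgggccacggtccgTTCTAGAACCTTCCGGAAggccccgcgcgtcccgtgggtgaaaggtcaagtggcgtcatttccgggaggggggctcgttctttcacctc
The capitals hold 2 overlapping matches of 3 units, the first base 89 bases before the start of *Hspe1*. The window of the second annotated start of *Hspd1* covers the same bases on the other strand (285 of 300 shared), with the match 144 bases before that start, so these are not separate matches. The window of the first *Hspd1* start held none.

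*Hspa9* encodes mortalin, the matrix Hsp70 that pulls imported proteins through the inner membrane. Its gene is at chr18:34937414-34954357 (minus strand). The HPC libraries had 591, 420.2 and 464 CPM and the LPC ones 664, 407 and 590.5 CPM. It was lower in HPC in pairs 1 and 3 and about equal in pair 2, with differences of -0.17, 0.05 and -0.35. Its log2 fold change was -0.17 ± 0.37 (SE) with all libraries and -0.27 ± 0.12 without pair 2 (adjusted p 0.360 in edgeR's test with the block). Relative to *Hspd1*, its count ratio was 0.425, 0.890 and 0.599 in HPC and 0.355, 0.497 and 0.544 in LPC libraries, higher in the HPC library of each pair.

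**Figure D2:**
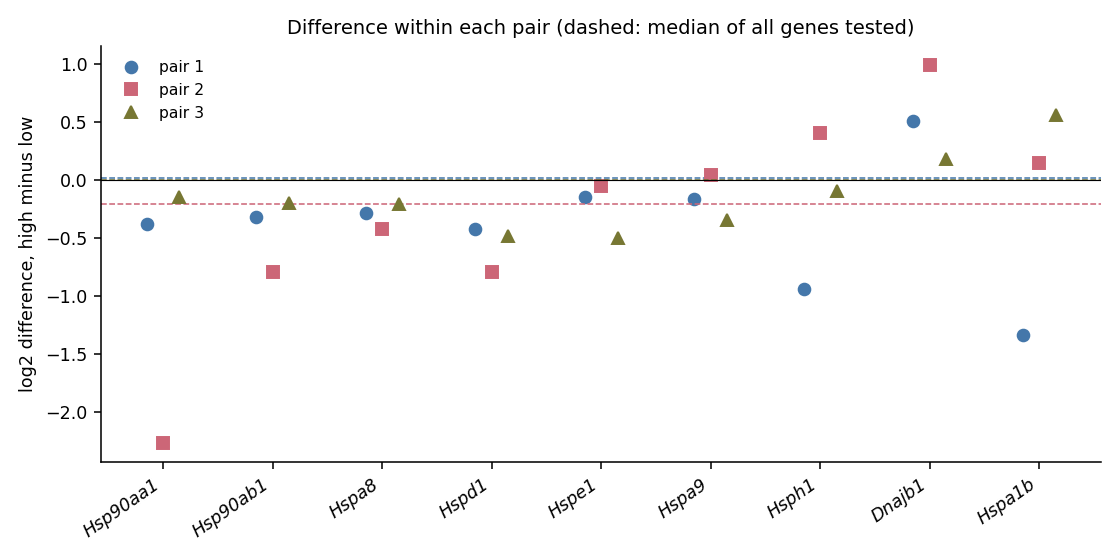
Log2 difference, HPC minus LPC, within each of the 3 pairs for the 9 tested chaperones (log2 CPM with a prior count of 2), with the median of all genes tested in that pair as a dashed line. For *Hsp90aa1*, *Hsp90ab1*, *Hspa8* and *Hspd1* all 3 points lie below the lines, *Dnajb1* lies above in each pair, and *Hspa1b* spreads from -1.34 to 0.56.

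The cytosolic Hsp90 genes were the most abundant of the 10. *Hsp90ab1* (chr17:45567775-45573271, minus strand), which encodes the form made at all times, ranked between 8 and 22 among all rows of a library by count. Its level was 2259, 3401 and 2536 CPM in HPC and 2813, 5908 and 2911 CPM in LPC libraries. The lowest and the highest values belong to different groups, but the groups overlap through the HPC library of pair 2. The differences were -0.32, -0.80 and -0.20, and the log2 fold change was -0.51 ± 0.44 (SE) with all libraries and -0.27 ± 0.11 without pair 2 (adjusted p 0.306 in edgeR's test with the block).

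*Hsp90aa1* (chr12:110690605-110702728, minus strand) encodes the form that heat also induces. Its level was 1679, 2256 and 1268 CPM in HPC and 2182.1, 10882 and 1404 CPM in LPC libraries. The LPC library of pair 2 was far above the other 5, and in it *Hsp90aa1* was the row with the fifth most counts. Its log2 fold change was -1.48 ± 0.76 (SE) with all libraries, -0.05 without that one library, and -0.27 ± 0.12 without pair 2 and with the block, where its adjusted p was 0.317 in edgeR's test. The count ratio of *Hsp90aa1* to *Hsp90ab1* shows the same library, at 1.84 against 0.482 to 0.776 in the other 5. In pairs 1 and 3 this ratio differed little between HPC and LPC cells (0.743 against 0.776 in pair 1).

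Counts of *Hsp90aa1* are uncertain, because the last 500 bases of its transcript share at least 100 bases, at 95% identity or more, with the pseudogenes *Gm12346* and *Gm5844*, which have rows of their own. These rows held 42540 counts together, or 47.4% of the number in the *Hsp90aa1* row, and the authors' counting may have split reads among them. *Gm12346* had 325, 506 and 240.3 CPM in HPC and 429.5, 1936 and 271 CPM in LPC libraries, with its peak in the same library of pair 2. Adding both rows to *Hsp90aa1* gave log2 fold changes of -1.52 with all libraries and -0.26 without pair 2 and with the block, close to those of the row alone.

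*Hspa8* (chr9:40800984-40810087, plus strand) encodes the Hsp70 that is made at all times and that also strips clathrin from vesicles. It had 541, 330.0 and 626 CPM in HPC and 661, 444 and 723 CPM in LPC libraries. Here pair 2 was the lowest pair, and in each pair the HPC library was below the LPC one, by -0.29, -0.43 and -0.21 on the log2 scale. The log2 fold change was -0.29 ± 0.40 (SE) with all libraries and -0.26 ± 0.12 without pair 2 (adjusted p 0.372 in edgeR's test with the block). The pseudogene row *Gm8355*, which shares the 3′ end of *Hspa8*, held 34.4% as many counts, and with its counts added the log2 fold changes were -0.30 with all libraries and -0.26 without pair 2 and with the block.

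*Hsph1* encodes Hsp110, which speeds the exchange of nucleotide on Hsp70 and so the release of its client. Its level was 46.2, 262 and 81.6 CPM in HPC and 88.9, 198 and 87.4 CPM in LPC libraries. Both libraries of pair 2 were above the other 4. The differences of -0.94, 0.40 and -0.10 changed sign between pairs, and so did the log2 fold change, at 0.05 ± 0.68 (SE) with all libraries and -0.52 ± 0.20 without pair 2 and with the block (adjusted p 0.257 in edgeR's test). Without the block it was -0.96 with the HPC library of pair 2 left out, and -0.14 and -0.15 with the LPC library of pair 1 or 3 left out. Its gene is at chr5:149614287-149636376 (minus strand), and a 3-unit heat shock element lies 36 bases after the first of its annotated starts, read on the gene's strand at chr5:149636288-149636300.
Hsph1: TTCTGGAAAGTTC

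The heat-inducible Hsp70 genes were the least abundant of the 10 outside pair 2. *Hspa1b* (chr17:34956436-34959238, minus strand) had 3.90, 264 and 15.3 CPM in HPC and 10.4, 238 and 10.3 CPM in LPC libraries. Both libraries of pair 2 were far above the other 4. In counts these were 453 and 832 reads, against 24 to 131 elsewhere. The differences within pairs were -1.34, 0.15 and 0.56, with no common direction, and the log2 fold change was 0.12 ± 1.60 (SE) with all libraries and -0.31 ± 0.45 without pair 2 and with the block, where the adjusted p was 0.861 in edgeR's test. With all libraries and no block it was -3.13 without the HPC library of pair 2 and 3.16 without the LPC one.

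*Hspa1a* (chr17:34969190-34972156, minus strand) encodes nearly the same protein. Its counts were 14, 14 and 3 in the HPC libraries and 0, 0 and 1 in the LPC ones. It was the 1 chaperone of the 10 whose groups did not overlap in these values. Among the genes tested 2.43% were higher, and 3.31% lower, in all HPC libraries than in any LPC one. Those genes passed a minimum count that *Hspa1a* did not, so these shares are no background for so sparse a row. The levels were 2.28, 8.15 and 0.351 CPM against 0, 0 and 0.105 CPM, and a count of 0 allows up to 0.496 and 0.858 CPM in the LPC libraries of pairs 1 and 2. The lowest HPC level, 0.351 CPM from 3 counts, lies below both of these limits, so counting error alone leaves the separation unshown. Summed over the libraries, 31 against 1 counts gave a ratio of 36.0 with a 95% counting interval of 6.003 to 1468, which covers counting error only. With the 6 libraries permuted in an exact 2-sided test, p was 0.1, the smallest that 3 against 3 can give, and 32 counts in all are few. With labels swapped only within the pairs, the exact 2-sided p was 0.25, the smallest that 3 pairs can give. On the opposite strand *Gm20481*, which has no row of its own, overlaps 2225 bases of *Hspa1a*. Whether counting used the strand is not given in the sources used here, so reads of the 2 genes may not have been separated.

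The sequences of the 2 genes are nearly alike, and they are shown because the counts of the 2 rows were not. The 250 bases before each start in RefSeq (GRCm38.p6) follow, for *Hspa1a* at chr17:34972157-34972406 and for *Hspa1b* at chr17:34959239-34959488, both on the minus strand, with the 2-unit match to the heat shock element in capitals.
Hspa1a: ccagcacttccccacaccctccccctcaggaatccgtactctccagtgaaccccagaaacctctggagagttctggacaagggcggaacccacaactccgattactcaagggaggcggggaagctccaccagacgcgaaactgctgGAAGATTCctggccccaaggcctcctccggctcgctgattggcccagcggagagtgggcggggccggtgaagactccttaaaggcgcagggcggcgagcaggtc
Hspa1b: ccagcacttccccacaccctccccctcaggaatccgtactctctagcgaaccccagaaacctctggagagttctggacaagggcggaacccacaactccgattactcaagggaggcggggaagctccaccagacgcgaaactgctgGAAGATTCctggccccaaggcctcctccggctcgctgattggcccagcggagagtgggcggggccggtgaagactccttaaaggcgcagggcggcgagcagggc
They differ at 3 of these 250 bases and are identical over a run of 201. The match lies 104 bases before the start in both. Their transcripts are 99.1% identical over 2200 aligned bases, but the last 770 bases of *Hspa1a* and the last 603 of *Hspa1b* do not align to the other, so reads from the 3′ ends can be told apart. With the counts of both rows summed, the log2 fold change was 0.17 with all libraries and -0.03 without pair 2 and with the block.

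*Dnajb1* encodes the J-domain protein Hsp40 that loads clients onto Hsp70 and is itself induced by heat. Its level was 35.8, 139 and 40.8 CPM in HPC and 25.1, 69.5 and 36.0 CPM in LPC libraries. It was the 1 tested chaperone with more transcript in HPC in each pair, and the log2 differences were 0.51, 0.99 and 0.18. The groups overlap, since pair 2 was above the others in both. The log2 fold change was 0.71 ± 0.64 (SE) with all libraries, 0.56 ± 0.26 with the block and 0.33 ± 0.21 without pair 2 and with the block, where its adjusted p was 0.593 in edgeR's test. Without the HPC library of pair 2 alone, which breaks that pair, it was -0.17. The gene is at chr8:83608193-83612653 (plus strand), and neither window before its annotated starts held a heat shock element by the letters searched.

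**Figure D3:**
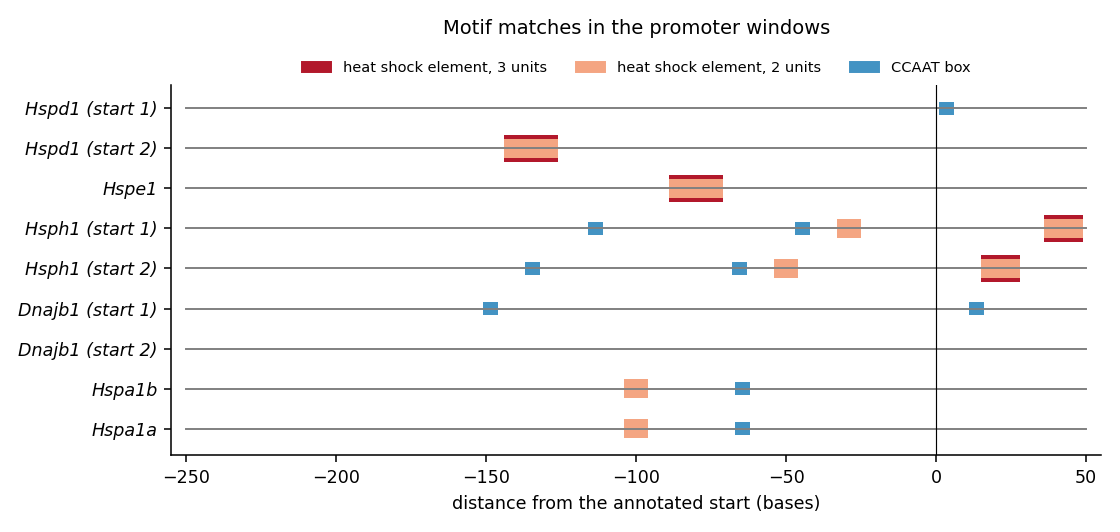
Matches to the heat shock element (3 units red, 2 units orange) and the CCAAT box (blue) in the RefSeq windows of 6 chaperones, by distance in bases from each annotated start, which is at 0. The 3-unit matches lie before the second start of *Hspd1* and the start of *Hspe1* and after both starts of *Hsph1*, and *Hspa1a* and *Hspa1b* hold the same matches at the same distances.

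Of the 10 chaperones, 6 had windows in the promoter table, 9 windows in all, each 250 bases before and 50 after a start. A 3-unit heat shock element was in 4 of the 9 windows, against 0.603% of 32851 windows in the table. These belong to *Hspd1*, *Hspe1* and *Hsph1*. *Hspd1* and *Hspe1* share their bases, and both *Hsph1* windows hold the same match, so the 4 windows are not separate instances. A 2-unit element, which every 3-unit match contains, was in 6 of the 9 windows and in 15.1% of all windows. The CCAAT box (CCAAT or ATTGG) was in 6 of the 9 and in 37.4% of all windows. A match is a description of the letters in the window and does not show that a factor was bound.

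In pair 2, 5 of the 9 tested chaperones were above the mean of pairs 1 and 3 and 4 were below it, in HPC and LPC alike. The LPC library of pair 2 had 23.0 times the mean *Hspa1b* level of the LPC libraries of pairs 1 and 3, and the HPC library had 27.4 times the mean of its group's other libraries. *Hsph1* had 2.25 and 4.10 times, *Dnajb1* 2.27 and 3.62 times, *Hsp90ab1* 2.06 and 1.42 times and *Hsp90aa1* 6.07 and 1.53 times. Those below were *Hspa8* (0.642 and 0.566 times), *Hspa9* (0.650 and 0.796), *Hspd1* (0.555 and 0.435) and *Hspe1* (0.734 and 0.885). The median of all genes was 0.868 and 0.704 times. Against that median, *Hspa8* and *Hspd1* were lower in both groups, and *Hspa9* and *Hspe1* were lower in LPC but higher in HPC.

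Ratios of counts within a library do not depend on its scaling. The count of *Hspa1b*, the inducible Hsp70, divided by that of *Hspa8*, the constitutive one, was 0.799 and 0.536 in the HPC and LPC libraries of pair 2 and 0.007 to 0.024 in the others. With 2 libraries, both of 1 pair, the pair and its composition cannot be told apart. The 10 chaperones together held 0.960%, 0.367% and 0.839% of gene counts in HPC and 1.21%, 1.43% and 1.01% in LPC libraries, less in the HPC library of each pair. These shares count RP23-81C12.3, which held 53.9% and 27.1% in pair 2, in the total. In normalised CPM the summed level was 7309, 8167 and 6444 in HPC and 9155, 19606 and 7751 in LPC libraries, again less in HPC in each pair, with a narrower gap in pair 2. Of the 68582 counts in the LPC library of pair 2, 38065 were from *Hsp90aa1*.

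**Figure D4:**
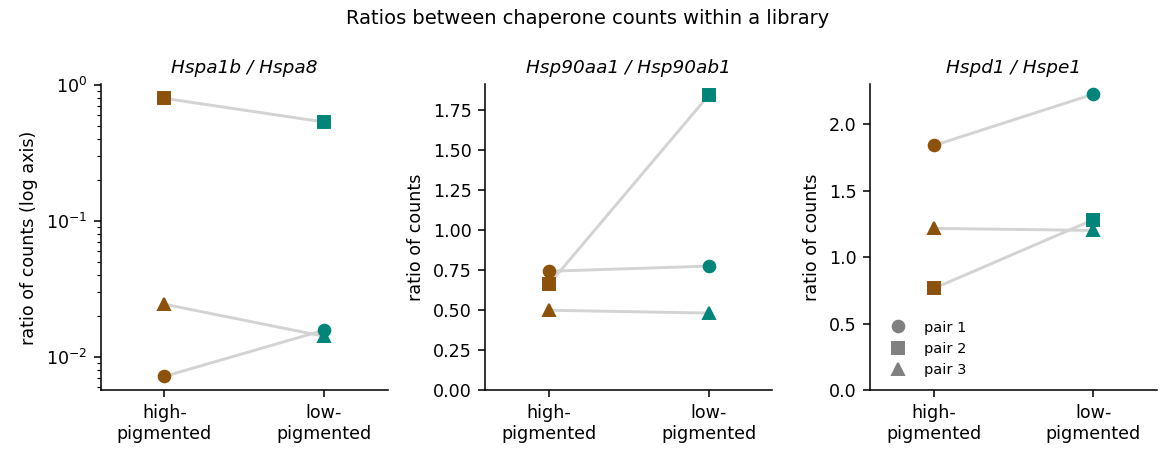
Ratios between the counts of 2 chaperones in the same library, *Hspa1b* to *Hspa8* (log axis), *Hsp90aa1* to *Hsp90ab1* and *Hspd1* to *Hspe1*, in HPC and LPC libraries, with a line joining each pair. Pair 2 (squares) is apart in the first ratio in both groups (0.799 and 0.536) and in the second only in LPC (1.84).

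The genes whose level over the 6 libraries was most like the mean of the 9 chaperones were sought among 7773 genes averaging at least 10 CPM. They were *Uchl1* (Pearson r 0.998), which encodes a ubiquitin hydrolase, *Psmd7* (0.997), a subunit of the proteasome lid, and *Dnajc21* (0.997), a J-domain protein of ribosome assembly. The measure is the r of log2 CPM, a description over 6 libraries that share their pairs, and both libraries of pair 2 were highest in all 3 genes. *Uchl1* had 58.2 and 101 CPM in the HPC and LPC libraries of pair 2 and 15.9 to 27.6 CPM in the others. The chaperone mean was also highest in pair 2. It does not stand for *Hspa8*, *Hspa9*, *Hspd1* and *Hspe1*, which were lower in pair 2 than the mean of pairs 1 and 3. Each of the 3 was lower in the HPC library of every pair, as was the chaperone mean they were chosen to follow, so their direction is set by the choice and is no separate result.

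The rest of the chaperone network was read from lists of 93 partner and related genes, 83 of which were tested. With all libraries 0 of 83 passed, at a background of 0%, and 0 had an unadjusted p under 0.05. Of the 83, 29 were lower and 12 higher in HPC in all 3 pairs, against 17.2% and 12.9% of all genes. Without pair 2 and with the block, 1 of 84 tested passed, where 1.3% of all genes did.

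The cytosolic chaperonin TRiC, a double ring that folds actin and tubulin, and its partner prefoldin, which hands it clients, had 13 genes tested and 0 called. In all 3 pairs 8 had less transcript in HPC (17.2% of all genes) and 1 had more (12.9%). Their median log2 fold change was -0.29 with all libraries and -0.30 without pair 2 and with the block, and in the latter fit 12 of 13 were below 0, as were 49.9% of all genes. *Cct2* had 200, 104 and 137 CPM in HPC and 220.3, 170.4 and 183 CPM in LPC libraries, lower in each pair, and its log2 fold change was -0.38 ± 0.39 (SE) with all libraries and -0.29 ± 0.14 without pair 2 and with the block (adjusted p 0.418). *Tcp1*, another ring subunit, was at -0.29 ± 0.51 and -0.35 ± 0.20 (adjusted p 0.530).

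Of 16 Hsp90 co-chaperones, proteins that load, pace or finish the Hsp90 cycle, 6 were lower and 2 higher in all 3 pairs (17.2% and 12.9% of all genes). Without pair 2 and with the block, their median was -0.13 and 0 were called (1.3% of all genes), and with all libraries the median was -0.20. The log2 fold changes given first below are from the fit without pair 2 and with the block. *Stip1*, the adaptor that joins Hsp70 to Hsp90, had 41.3, 52.4 and 34.4 CPM against 70.9, 66.3 and 41.8 CPM, and its log2 fold change of -0.54 ± 0.20 (SE) did not pass (adjusted p 0.236). *Ptges3*, which encodes p23, and *Ahsa1*, the activator of Hsp90's ATPase, were also lower in each pair, at -0.34 ± 0.14 and -0.32 ± 0.16 (adjusted p 0.305 and 0.420). *Cdc37*, which brings kinases to Hsp90, was at 0.24 ± 0.15 and *Fkbp4*, an immunophilin of receptor complexes, at -0.10 ± 0.14 (adjusted p 0.586 and 0.850). With all libraries these values were -0.49 ± 0.41 for *Stip1*, -0.33 ± 0.34 for *Ptges3*, -0.24 ± 0.36 for *Ahsa1* and 0.06 ± 0.37 for *Cdc37*, and *Fkbp4* turned to 0.15 ± 0.47.

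Partners of Hsp70 showed no common direction. Of 5 other Hsp70 and Hsp110 genes, 1 was lower and 1 higher in all 3 pairs, with a median of -0.02. *Hspa4*, an Hsp110, was at -0.09 ± 0.12 (adjusted p 0.837). Of 13 cytosolic J-domain genes 2 were lower and 2 higher, with a median of 0.02, and the general J-domain proteins *Dnaja1* and *Dnaja2* were at -0.13 ± 0.14 and -0.21 ± 0.14 (adjusted p 0.801 and 0.611). Of 9 exchange factors and partners 2 were lower and 1 higher. Over all genes 17.2% were lower and 12.9% higher in all 3 pairs. *St13*, which holds Hsp70 in its client-bound state, was lower in each pair at -0.18 ± 0.13, and the exchange factors *Bag1* and *Bag3* were at 0.12 ± 0.21 and 0.24 ± 0.22 (adjusted p 0.661, 0.894 and 0.758). These log2 fold changes (± SE) are from the fit without pair 2 and with the block, which called none of these genes (1.3% of all genes). With all libraries they were -0.09 ± 0.39 for *Hspa4*, -0.10 ± 0.60 for *Dnaja1*, -0.11 ± 0.34 for *Dnaja2*, -0.16 ± 0.44 for *St13*, 0.41 ± 0.42 for *Bag1* and 0.32 ± 0.49 for *Bag3*.

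Of 14 other mitochondrial chaperones and proteases, 6 were lower and 2 higher in all 3 pairs (17.2% and 12.9% of all genes). Without pair 2 and with the block, their median was -0.09 and 0 were called (1.3% of all genes). The log2 fold changes given first below are from the same fit. With all libraries the median was -0.17 without the block and -0.57 with it. Within pairs 1, 2 and 3 the median difference was -0.03, -1.53 and 0.02, where that of all genes in pair 2 was -0.20. *Dnaja3*, the J-domain partner of mortalin, had 38.9, 47.7 and 27.8 CPM in HPC and 48.3, 48.9 and 35.3 CPM in LPC libraries, and its log2 fold change of -0.34 ± 0.20 (SE) had an adjusted p of 0.553. *Grpel1*, the exchange factor of mortalin, was at -0.23 ± 0.19 and the protease *Lonp1* at -0.06 ± 0.13 (adjusted p 0.716 and 0.915). *Trap1*, the mitochondrial Hsp90, was at 0.13 ± 0.24 (adjusted p 0.901), and it had 0 counts in the HPC library of pair 2. With all libraries the log2 fold changes were -0.21 ± 0.41 for *Dnaja3*, -0.07 ± 0.39 for *Grpel1* and -0.19 ± 0.39 for *Lonp1*, and *Trap1* turned to -0.15 ± 1.15.

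Small heat shock proteins hold unfolded proteins without ATP, and 2 of their genes differed more between pairs than between HPC and LPC. *Hspb1* had 289 and 227 CPM in the HPC and LPC libraries of pair 2 and 7.11 to 15.7 CPM in the others, as did *Hspa1b* among the larger chaperones. *Hspb8* had 54.5 and 50.1 CPM in pair 1 and 0 counts in the other 4 libraries. *Cryab*, which encodes alpha-B crystallin, was at 0.48 ± 0.16 (log2 fold change ± SE, adjusted p 0.182) without pair 2 and with the block and at 0.29 ± 0.50 with all libraries. *Hspb1* was at -0.44 ± 0.40 and 0.28 ± 1.59 in these fits. The small heat shock protein median of 0.48 without pair 2 and with the block rests on 5 genes. Of the 4 tested with all libraries, 2 were higher in all 3 pairs (12.9% of all genes).

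The transcription factor that switches on the heat shock genes, *Hsf1*, had at most 11.4 CPM, with 0 counts in the HPC library of pair 2. Without pair 2 and with the block its log2 fold change was -0.42 ± 0.42 (SE, adjusted p 0.774). *Hsf2* was at 0.02 ± 0.28 and *Hsbp1*, which encodes an inhibitor of Hsf1, at 0.23 ± 0.17 (adjusted p 0.992 and 0.663), the latter higher in each pair. With all libraries the values were -0.39 ± 1.32 for *Hsf1*, 0.61 ± 0.62 for *Hsf2* and 0.43 ± 0.41 for *Hsbp1*. Of the 5 genes tested in this list, 1 was lower and 1 higher in all 3 pairs (17.2% and 12.9% of all genes).

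**Figure D5:**
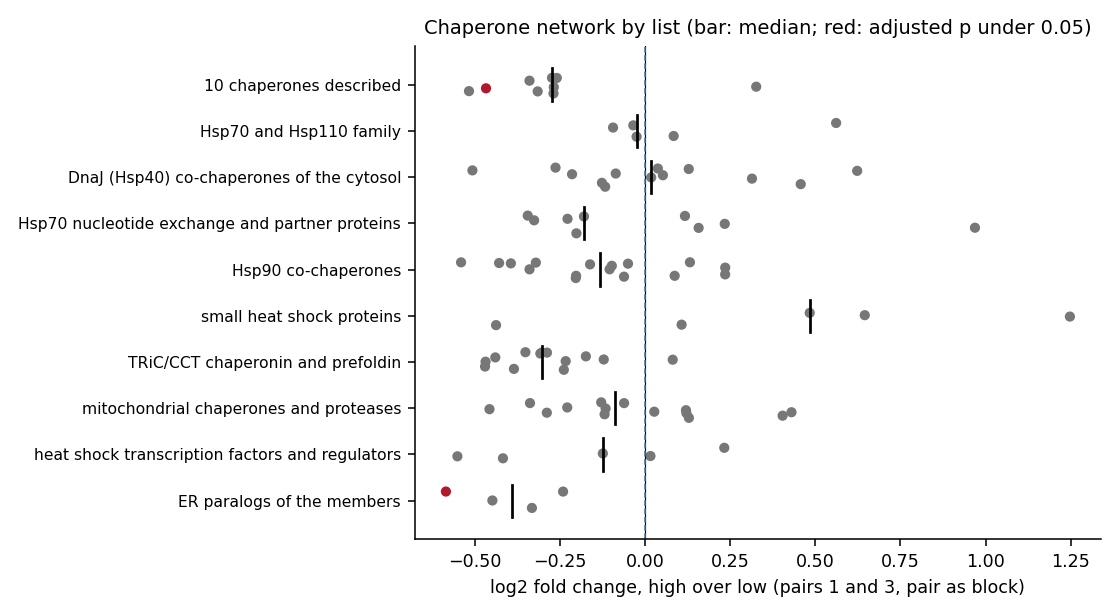
Log2 fold change (HPC over LPC, edgeR without pair 2 and with the pairs as a block) of the 9 tested chaperones of the 10 described and of the related genes by list, 1 point a gene, with the list median as a bar, genes with an adjusted p under 0.05 in red and the median of all genes as a dashed line. The 2 red points are *Hspd1* at -0.47 and *Hspa5* at -0.58, and 12 of 13 TRiC and prefoldin genes lie below 0.

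The endoplasmic reticulum holds its own Hsp70, Hsp90 and Hsp110. Of 4 such genes 3 were lower and 0 higher in all 3 pairs (17.2% and 12.9% of all genes). *Hspa5*, which encodes BiP, had 6008, 1223 and 3188 CPM in HPC and 9600, 2429 and 4418 CPM in LPC libraries, below its partner in each pair. Without pair 2 and with the block it fell by 0.58 ± 0.11 on the log2 scale (SE, adjusted p 0.00711), and with all 6 libraries, the block and limma-voom's sample weights its adjusted p was 0.00517. In edgeR with all 6 libraries it did not pass, with the block (adjusted p 0.927) or without it (-0.66 ± 0.69, adjusted p 0.9996), nor without pair 2 and without the block (-0.62, adjusted p 0.99998). It was the 1 related gene that edgeR called without pair 2 and with the block.

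Handling and sorting of cells can switch on immediate early genes, and these were read beside the chaperones. Of 11 tested, 1 was lower and 2 higher in all 3 pairs (17.2% and 12.9% of all genes). *Fos* had 12.5, 1.16 and 12.5 CPM in HPC and 5.12, 12.6 and 2.10 CPM in LPC libraries, and without pair 2 and with the block it rose by 1.90 ± 0.46 on the log2 scale (SE, adjusted p 0.0397), while pair 2 had the opposite direction, and with all libraries it was at 0.44 ± 1.09. In the same fit 3 of 10 melanocyte lineage markers were called higher, where 0.932% of all genes were. They were *Pmel* (0.74 ± 0.11), *Slc45a2* (0.76 ± 0.13) and *Oca2* (1.80 ± 0.35), with adjusted p of 0.000811, 0.00281 and 0.00858 in edgeR's test. With all libraries and no block these 3 were at 0.71 ± 1.06, 0.74 ± 0.75 and 1.58 ± 0.95, with 0 called. With all libraries, the block and limma-voom's sample weights, 2 of the 10 markers were called higher, as were 27 of 11324 genes. Without pair 2 and with the block, 0 of the 10 markers were below 0, and their median was 0.52. Within pairs 1 and 3 the marker median was 0.32 and 0.52, with 2 and 0 of the 10 lower in HPC. In pair 2 it was -0.43, and 6 of the 10 were lower in HPC, *Pmel* among them. In all 3 pairs, 3 of the 10 were higher (12.9% of all genes). The part of either group in the chaperone differences was not tested.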

How the data were processed

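The table holds raw counts for each gene and library as deposited. HTSeq made them, going by the table's name and its tally rows, and the submitters' processing notes list STAR and the GRCm38 build. Per the labels' protocols, libraries were made with the QuantSeq 3′ forward kit and read on a NextSeq 500. Counting mode, strand use, annotation and tool versions are not given in the sources used here. Rows for reads in no gene (12.4% to 29.5% of tallied reads) or in several genes (0.487% to 2.51%) were left out.

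Genes were tested in R 4.3.3 with edgeR 4.0.16 (glmQLFit and glmQLFTest, robust) after filterByExpr with a minimum count of 10 and TMM scaling, with Benjamini-Hochberg adjustment over all genes tested. Standard errors of log2 fold changes come from the test statistic. DESeq2 1.42.0 and limma-voom (limma 3.58.1), other scalings and filters, the pair block, leaving out pair 2 or each library, and added rows of near-identical genes were alternatives. Only edgeR's fits with the block, with all libraries and without pair 2, were run on simulated counts. The spread set there was smaller than in these data, so the simulation does not test the fits at the spread seen here. Counts of the chaperones other than *Hspa1a* were 24 or more per library, and the intervals given cover counting error only.

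Libraries that share a title suffix varied together around their group means (correlations across genes of 0.466, 0.316 and 0.422, each above the minimum of 0.1), so the suffix was taken to pair them. No 2 libraries agreed within sampling noise. The text names the 10 chaperones, a set of 23 partner genes, any gene of the lists with an adjusted p under 0.05 in the unblocked fit, the blocked fit or the blocked fit without pair 2, and the 3 genes most like the chaperones. The chaperones, lists and rules were chosen with earlier results of these data known, including how pair 2 stands apart. Shared transcript ends were found with blastn 2.17.0 in GENCODE vM21. Figures were drawn with matplotlib 3.10.9.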

Additional observations from a re-analysis of the deposited data

How the results depend on the processing

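With no block, 0 genes were called under each other scaling, filter or tool tried with all 6 libraries, and in edgeR with any one library or pair 2 left out. With the pairs as a replicate block, edgeR and limma-voom called 0 genes, DESeq2 4 and limma-voom with sample weights 34. With the block and without pair 2, edgeR called 155 genes, limma-voom 354 and DESeq2 123. In that edgeR fit upper-quartile scaling gave 121 genes, and leaving RP23-81C12.3 and mitochondrial ribosomal RNA out of the library sizes gave 207. Leaving out pair 1 or pair 3 in place of pair 2, with the block, gave 0. Of the chaperones, 1 (*Hspd1*) was called in each of these fits without pair 2 and with the block, except under upper-quartile scaling with 0. In edgeR's fit of that kind it was also called with rows of near-identical genes added to *Hsp90aa1* and *Hspa8*, or to *Hspa1b*. Of the related genes, 1 was called in all 6 libraries with the block and sample weights, and without pair 2 the count was 1 in edgeR, also under upper-quartile scaling, 3 in limma-voom, 2 in DESeq2 and 2 without RP23-81C12.3. The count of chaperones lower in each pair was 5 under every scaling, 4 with each pair's median over all genes subtracted, and 7 without pair 2. Subtracting medians, changing the scaling, tool or rows in a fit that leaves out pair 2, adding the rows that share a 3′ end and leaving out pairs 1 or 3 were chosen after the data were seen.

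Log2 fold changes that turned were those of 2 of the 10 chaperones and 9 other genes. *Hspa1b*, at 0.12 with all libraries, was -0.86 in limma-voom, -0.15 with the replicate block, -0.16 with the block in DESeq2, -0.11 without pair 2, and -0.31 without pair 2 and with the block (-0.37 in DESeq2, -0.30 under upper-quartile scaling or without RP23-81C12.3, and -0.034 with *Hspa1a* added), and -0.55 with the block and without pair 3. *Hsph1*, at 0.05, was -0.32 in limma-voom, -0.21 with the block, -0.20 with the block in DESeq2, -0.17 in limma-voom and -0.41 with its sample weights, -0.26 with the block and without pair 3, -0.47 without pair 2, and -0.52 without pair 2 and with the block (-0.46 in limma-voom, -0.51 in DESeq2, -0.51 under upper-quartile scaling and -0.50 without RP23-81C12.3). *Hspb1*, at 0.28, was -0.87 in limma-voom, -0.14 with the block, -0.12 in DESeq2, -0.31 with sample weights, -0.24 with the block and without pair 1, -0.51 without pair 2, and -0.44 without pair 2 and with the block (-0.58 in limma-voom, -0.41 in DESeq2, -0.43 under upper-quartile scaling and -0.42 without RP23-81C12.3). *Fkbp4*, at 0.15, was -0.053 with the block and sample weights and -0.095 without pair 2, and without pair 2 and with the block it was -0.10 in edgeR, -0.093 in limma-voom and DESeq2, -0.092 under upper-quartile scaling and -0.090 without RP23-81C12.3. *Trap1*, at -0.15, was 0.11 with sample weights, and without pair 2 it was 0.14, or 0.13 with the block in edgeR and limma-voom and 0.14 in the other 3 such fits. With the block and without pair 1, *Dnaja1* was 0.059, *Grpel1* 0.12 and *Fos* -0.22. With the block and without pair 3, *Cdc37* was -0.043, *Cryab* -0.040 and *Fos* -0.87. *Hsf2* was -0.0039 without pair 2. The cause of these turns was not tested.

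Leaving out each library in turn, without the block, breaks a pair, and 22 of the genes named turned at least once. The log2 fold change ranged from -3.13 to 3.16 for *Hspa1b*, -0.96 to 0.55 for *Hsph1* and -0.17 to 1.21 for *Dnajb1*. For *Hsp90aa1* it ranged from -1.91 to -0.051, and for *Hspd1* from -1.02 to -0.11, with no turn. Of the partner genes it ranged from -0.024 to 0.51 for *Bag3*, -0.073 to 0.30 for *Cdc37*, -0.010 to 0.71 for *Cryab*, -0.49 to 0.33 for *Dnaja1*, -0.19 to 0.45 for *Fkbp4*, -0.23 to 0.14 for *Grpel1*, -1.55 to 0.14 for *Hsf1*, -0.079 to 0.94 for *Hsf2*, -0.39 to 0.15 for *Hspa4*, -1.32 to 0.027 for *Hspa5*, -3.34 to 3.12 for *Hspb1*, -0.34 to 0.051 for *Lonp1*, -0.50 to 0.18 for *St13*, -0.65 to 0.095 for *Tcp1* and -0.81 to 0.41 for *Trap1*. It ranged from -0.069 to 1.35 for *Pmel*, -1.52 to 0.19 for *Uchl1*, -0.77 to 0.062 for *Psmd7* and -1.43 to 0.42 for *Dnajc21*. With 0 to 14 counts per library, *Hspa1a* is the chaperone of the 10 most limited by depth. *Hspa1b* had 24 to 131 counts outside pair 2. DESeq2 without pair 2 and with the block gave *Hspa1b* and *Dnajb1* no adjusted p.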
